A study of Zea mays with 12 samples.

Results

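The genes described here are 7 MADS-box genes of maize (Zea mays), chosen by gene identifier from the 39514 genes of the deposited tables: m28, m4, zmm15, MADS34, m16, zmmads1 and mads69. They were chosen with their levels in Sdw3 and N18 already known, so the differences between those genotypes below are a description and no test is drawn from them. The samples were mRNA libraries of Sdw3, the mutant that the study's title names, and of N18, the line it was compared with. Both were sampled at the vegetative V7 stage, in the developing internode between leaves 7 and 8 and in the ligular region of leaves 8 and 9. Each of the 4 groups had 3 libraries by the labels, 12 in all, with no treatment named; the labels do not say whether the libraries came from separate plants, nor whether Sdw3 was bred into N18. The tables hold 1 FPKM value for each gene, tissue and genotype, combined by the authors over the libraries (fragments scaled to transcript length and library size). The files therefore give no spread between libraries for any level, and read depth is unknown.

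MADS-box genes encode transcription factors that bind DNA as pairs and larger complexes through a shared domain. In plants some of them time the change from leaf production to flowering, others set the identity of inflorescence meristems and floral organs, and a further group is active in vegetative shoots. In grasses the APETALA1/FRUITFULL-like (AP1/FUL-like) genes rise in leaves and shoot tips as flowering is induced, and SEPALLATA-like (SEP-like) genes act with them in the inflorescence.

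The AP1/FUL-like genes m28 and m4 were lower in Sdw3 in both tissues, by 4.44-fold to 15.3-fold. MADS34 was 6.14-fold lower in the internode, the one tissue where it was found above 1 FPKM. The flowering activators zmmads1 and mads69 were at 1.10 to 1.49 times their N18 levels. The authors tested all 7 genes in the internode and called 4, which here means that the authors' deposited table lists an adjusted p-value under 0.05. Those called were m28, m4 and MADS34, lower in Sdw3, and m16, higher. Of all internode genes tested, 11.3% were called, 4.76% as lower and 6.54% as higher. In the ligular region 6 of the 7 were tested and 3 called, with m28 and m4 lower and zmmads1 higher, where 26.8% of all tested genes were called, 13.7% as lower and 13.1% as higher. Because the genes were chosen on these values, nothing is read from either count or from the medians that follow. The median log2 ratio of Sdw3 to N18, with 1 FPKM added to each level, was -1.38 over the 7 genes in the internode, beside -0.03 over all tested genes. For ligular tissue it was -0.25 over the 6 tested members, and 0.00 over all tested genes to 2 decimals. The internode median of the members was the value of zmm15, which was not called. With 0.1 FPKM added in place of 1, the medians of the members were -2.28 in the internode and -0.31 in ligular tissue.

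**Figure D1:**
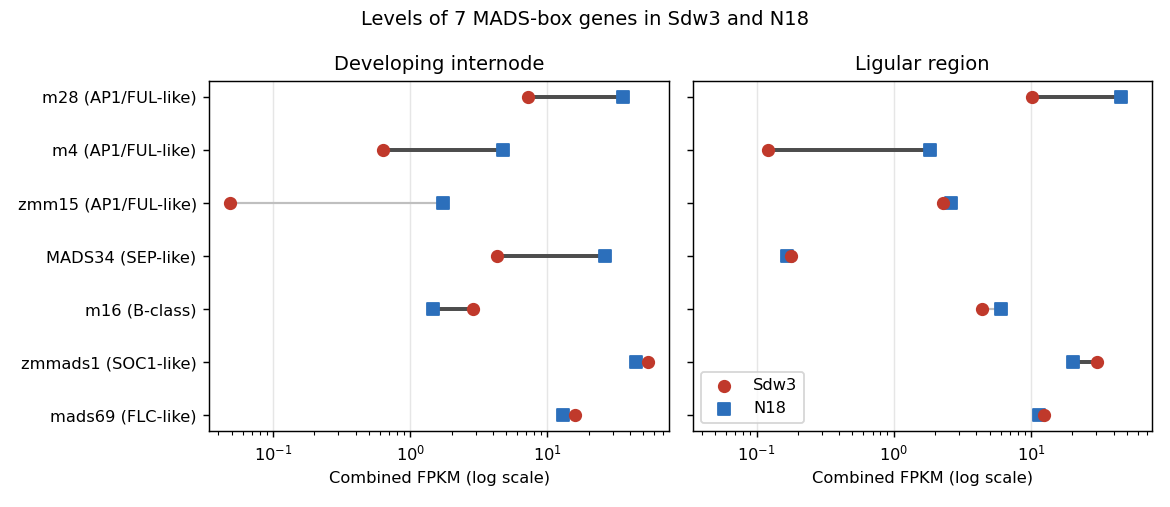
Combined FPKM of the 7 genes on a log axis, with Sdw3 as red circles and N18 as blue squares; a thick dark line joins values that the authors called different and a thin pale line those they did not. In the internode m28, m4, zmm15 and MADS34 lie to the left of N18 in Sdw3, and in the ligular region m28 and m4 do, with zmm15 and m16 slightly so. The class printed beside MADS34 was not examined here.

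Among the AP1/FUL-like genes, m28 (GRMZM2G147716; chromosome 7, 164451096 to 164456819), a gene whose raised expression in transgenic maize has been used to increase yield, was at 7.24 FPKM in the Sdw3 internode and 35.6 in the N18 internode. Its ligular levels were 10.2 in Sdw3 and 45.3 in N18. Sdw3 thus held 20.4% of the N18 level in the stem and 22.5% in the leaf base, nearly the same share in 2 unlike tissues. The log2 ratios were -2.30 and -2.15. For m28 the authors' deposited table lists adjusted p-values of 0.00109 (internode) and 0.000398 (ligular), the smallest that either tissue has. Other genes share these smallest values, among them m4 and MADS34 in the internode and zmmads1 in the ligular region. Of 21102 tested internode genes with a level above 0 in both genotypes, 23 had a ratio as low as that of m28 or lower. In the ligular region 105 of 22686 did. Since m28 was chosen with its levels known, these ranks only describe it.

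The gene m4 (GRMZM2G032339; chromosome 1, 277218150 to 277298925) promotes the floral transition when it is overexpressed in maize. It was at 0.634 FPKM in Sdw3 against 4.74 in N18 in the internode, and at 0.121 against 1.84 in ligular tissue. In either tissue, Sdw3 was thus below 1 FPKM where N18 was above it. The ratios were 7.48-fold and 15.3-fold lower, and the authors' deposited table lists adjusted p-values of 0.00109 and 0.00140. The ligular ratio rests on a Sdw3 level near 0: with 1 FPKM added to each level, the log2 ratio of m4 was -1.34 there in place of -3.93, and -1.81 in place of -2.90 in the internode. Of 20070 genes tested in both tissues with a level in both genotypes, 8 had a log2 ratio of -2 or lower in both. The genes m4 and m28 were among them, which is again a description, as both were chosen with their levels known.

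The third AP1/FUL-like gene, zmm15 (GRMZM2G553379; chromosome 5, 6993293 to 7011505; listed as m15 in the RefSeq gene table), was low in all 4 groups. Its internode levels were 0.0487 FPKM in Sdw3 and 1.73 in N18, and its ligular levels were 2.30 in Sdw3 and 2.60 in N18. The Sdw3 internode thus stood apart from the other 3 groups, and the ligular levels of the genotypes were close. The internode ratio is 35.4-fold, but the authors' deposited table lists an unadjusted p-value of 0.0407 and an adjusted one of 0.189 for it. The approximate standard error of the internode log2 ratio of -5.15, taken from that p-value, was 2.52, and with 1 FPKM added the ratio was -1.38. The ligular log2 ratio of zmm15 was -0.17 with an approximate standard error of 0.22, and the authors' deposited table lists 0.628 as its adjusted p-value.

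Summed over m28, m4 and zmm15, the AP1/FUL-like level was 7.93 FPKM in Sdw3 and 42.0 in N18 in the internode, 5.30-fold lower in Sdw3. The ligular sum was 12.6 in Sdw3 and 49.7 in N18, 3.94-fold lower. Most of each sum was m28, from 80.8% in the Sdw3 ligular region to 91.4% in the Sdw3 internode. A further gene of the same class, zap1, which is no member, was at most at 0.331 FPKM in any group and was not tested by the authors in either tissue.

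MADS34 (GRMZM2G137510; chromosome 10, 17785900 to 17791457) shares its name with a SEP-like gene that in rice helps to specify inflorescence and spikelet meristems. Whether the maize gene is of that class was not examined here. MADS34 was at 4.25 FPKM in the Sdw3 internode and 26.1 in the N18 internode, and at 0.180 and 0.167 in the ligular regions of Sdw3 and N18. The transcript was thus found in the internode, while in the ligular region both genotypes were near 0 and the authors did not test it. Within N18 its internode level was 156-fold its ligular level, and within Sdw3 23.7-fold; these are ratios across tables whose common scale is not given, from a ligular level near 0. In the internode MADS34 was 6.14-fold lower in Sdw3 (adjusted p-value 0.00109, authors' deposited table). In such bulk samples, fewer cells that express a gene and less RNA per cell cannot be told apart. This holds for m28, m4 and zmm15 above and for each other gene described here.

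The gene m16 (GRMZM2G110153; chromosome 3, 171471053 to 171473646), also listed as sts1, is a B-class gene of the PISTILLATA type, needed for stamen identity in the tassel. It was at 2.85 FPKM in Sdw3 against 1.46 in N18 in the internode, and at 4.42 against 6.08 in ligular tissue. Sdw3 was thus above N18 in the internode and below it in the ligular region. The internode log2 ratio of m16 was 0.97 with an approximate standard error of 0.28 (adjusted p-value 0.00958, authors' deposited table). The ligular ratio was -0.46 with an approximate standard error of 0.19, and this gene was not called there (adjusted p-value 0.0534, authors' deposited table). Whether the ratio of m16 differed between the tissues was not tested. The gene m16 lies in the 170 to 180 Mb stretch of chromosome 3. The next gene, GRMZM2G110195, chosen after its values were seen, was also called higher in the Sdw3 internode, at 16.8 FPKM against 8.67. Of the 10 genes listed next to m16, 8 were tested in the internode. Of these, 1 was called higher, which is GRMZM2G110195, and 0 lower, where 6.54% of all tested genes were called higher. Whether genes along this stretch rose together was not tested.

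The flowering activator zmmads1 (GRMZM2G171365; chromosome 9, 154082656 to 154102449), a SOC1-like gene listed as m5 and SOC1, was the most abundant of the 7 in 3 of the 4 groups. Its internode levels were 54.0 FPKM in Sdw3 and 44.3 in N18, and its ligular levels 30.1 and 20.2. Sdw3 was above N18 in either tissue. The internode level was listed above the ligular level in either genotype, again with no common scale given between the tissues. Ligular zmmads1 was 1.49-fold higher in Sdw3 (adjusted p-value 0.000398, authors' deposited table). Its internode log2 ratio was 0.29 with an approximate standard error of 0.11, and it was not called there (adjusted p-value 0.0763, authors' deposited table).

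The gene mads69 (GRMZM2G171650; chromosome 3, 159022118 to 159050063), an FLC-like gene that promotes flowering in maize by holding down a repressor of the florigen gene ZCN8, varied least of the 7. Its internode levels were 15.7 FPKM in Sdw3 and 13.0 in N18, and its ligular levels 12.5 and 11.4. The log2 ratio of mads69 was 0.28 with an approximate standard error of 0.14 in the internode, and 0.13 with one of 0.14 in ligular tissue. Neither was called, and the authors' deposited table lists adjusted p-values of 0.186 and 0.561. ZCN8 itself was at most at 0.276 FPKM in any group and was not tested by the authors.

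**Figure D2:**
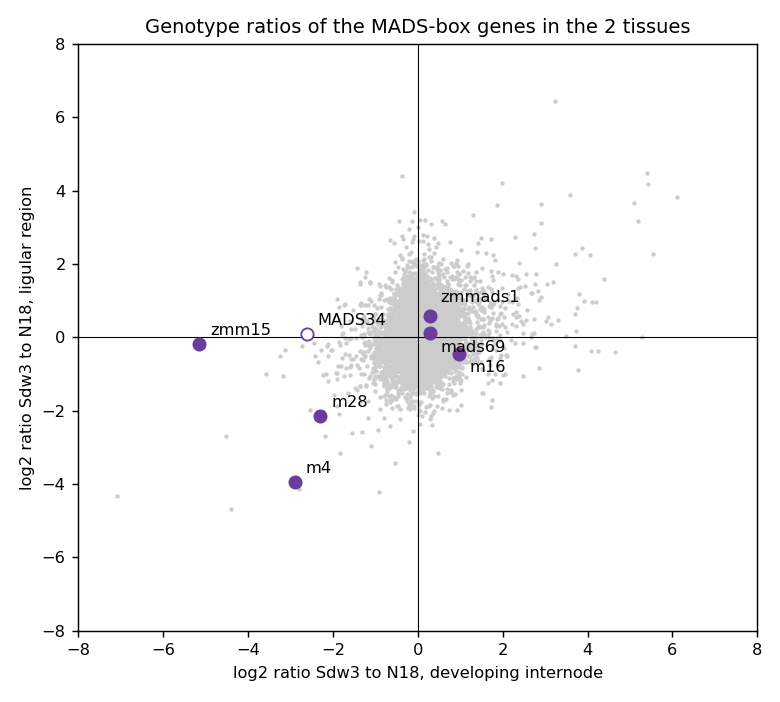
The log2 ratio of Sdw3 to N18 in the internode (x axis) and in the ligular region (y axis), with 20070 genes tested in both tissues in grey, the 7 genes in purple, and MADS34, which was not tested in the ligular region, as an open circle. The genes m28 and m4 lie at the lower left with ratios under -2 on both axes, and zmm15 and MADS34 lie far to the left near the horizontal line.

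Ordered by level, the genes stood differently in the genotypes. In N18 the internode order from high to low was zmmads1, m28, MADS34, mads69, m4, zmm15 and m16, and the ligular order was m28, zmmads1, mads69, m16, zmm15, m4 and MADS34. In Sdw3 the first 3 places were zmmads1, mads69 and m28 in either tissue. They were followed by MADS34, m16, m4 and zmm15 in the internode and by m16, zmm15, MADS34 and m4 in the ligular region. Without values for single libraries, whether neighbours in these orders differ beyond their spread cannot be given. The AP1/FUL-like genes made up 33.1% of the summed FPKM of the 7 genes in the N18 internode and 9.35% in the Sdw3 internode, and 56.8% and 21.1% in the ligular regions of N18 and Sdw3. In Sdw3 zmmads1 alone made up 63.7% of the internode sum and 50.3% of the ligular sum, beside 34.9% and 23.1% in N18. Such a share also rises when other members fall, and zmmads1 was not called in the internode.

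The reference gene table named 32 other MADS-box gene models in the files, and most were at or near 0, as the plot of the family shows. In the internode 7 of them were tested, with 1 called lower, 0 higher and 6 not called; in the ligular region 8 were tested, with 1 lower, 1 higher and 6 not called. These shares of 14.3% and 25.0% stand beside 11.3% and 26.8% of all tested genes. The median log2 ratio of the tested ones, with 1 FPKM added, was -0.07 in internodes and -0.15 in ligular tissue. In either tissue 12 of the 32 were listed at 0 in both genotypes.

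Of the abundant MADS-box genes outside the 7, m19, m20, m21 and m26 were not called in either tissue. The gene m19, which is the gene of the Tunicate pod corn locus and in wild-type maize is expressed in leaves and stems, was at 109 FPKM in Sdw3 and 115 in N18 in the internode, and at 83.0 and 88.8 in ligular tissue. Its relative m26 was at 76.6 and 84.3 in the internode and 57.3 and 64.0 in ligular tissue, and m21 was at 32.9 and 33.3 and then 34.4 and 38.9, in each case Sdw3 before N18. The gene m20 was at 68.4 and 74.8 in the internode and 64.8 and 72.0 in ligular tissue. Each of these 4 was thus slightly below N18 in Sdw3, by no more than 1.13-fold, and the smallest adjusted p-value that the authors' deposited table lists among them is 0.272. Also not called in either tissue were MADS47 and MADS62, at 2.46 to 3.46 FPKM over the 4 groups.

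The called genes outside the 7 were MADS76 and ZAG1. MADS76 fell in Sdw3 in both tissues, from 4.91 FPKM in N18 to 2.86 in the internode and from 142 to 103 in the ligular region, where it was the most abundant MADS-box gene. The authors' deposited table lists adjusted p-values of 0.00770 and 0.000398 for it. ZAG1, an AGAMOUS-like gene of stamen and carpel identity, rose in the Sdw3 ligular region to 3.52 FPKM from 1.56 in N18 (adjusted p-value 0.000398, authors' deposited table), and was at 0.0257 and 0.0250 in the internodes.

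**Figure D3:**
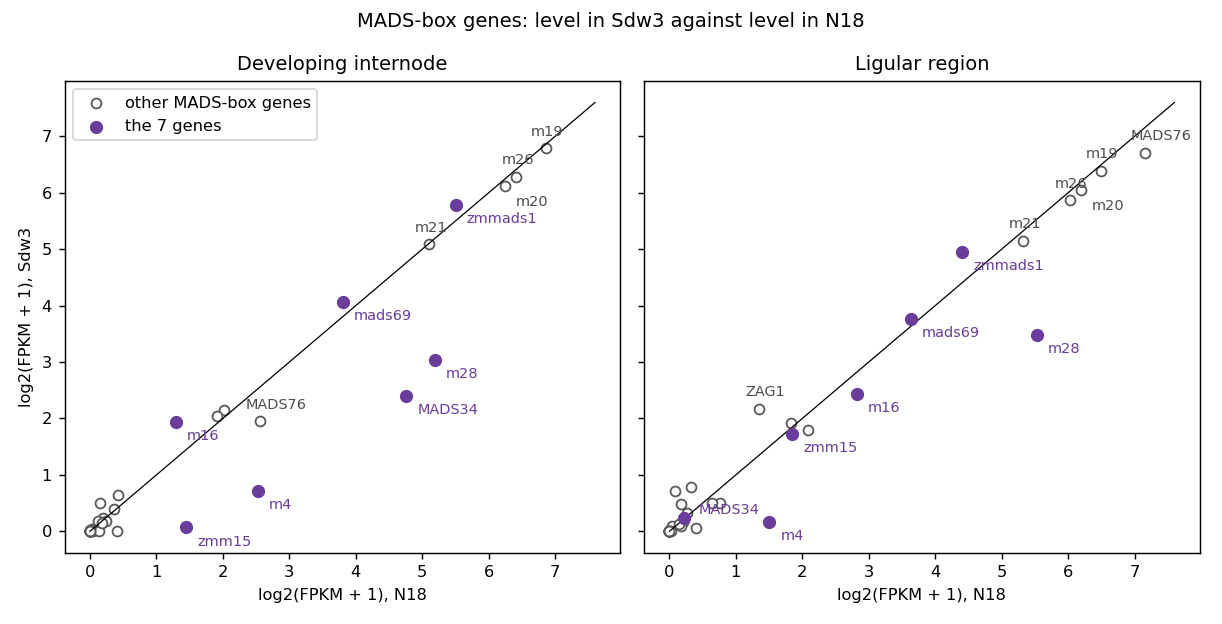
Level in Sdw3 (y axis) against level in N18 (x axis) as log2(FPKM + 1) for the 7 genes (purple) and the 32 other MADS-box gene models (open circles), with the line of equal levels. The genes m19, m20, m21 and m26 lie close to the line at high levels, m28 lies below it in both tissues, and MADS34 lies below it in the internode.

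The m4 and zmm15 loci share an arrangement that was not used to choose them, and that was also found outside the 7, for m29 and m18 (87.5 kb apart) and for a pair of zmm2 models (5.48 kb). Each has another MADS-box gene as its next listed gene: m24 lies 78.5 kb from m4 on chromosome 1, and m31 lies 60.8 kb from zmm15 on chromosome 5, with 0 listed genes between them. Neither neighbour reached 1 FPKM: m24 was between 0.150 and 0.248 FPKM in the 4 groups, and m31 was listed at 0 in both internodes and at 0.0379 (Sdw3) and 0.315 (N18) in the ligular region. Neither was tested by the authors. None of the 7 loci overlaps another gene of the tables. How reads that match several genes were assigned is not given in the sources used here, so reads of related copies such as m4 and zmm15 could have been divided between them.

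Other regulators of flowering were also examined, 35 gene models by name, of the florigen and TFL1 family (ZCN genes), photoperiod, phytochrome and phase change genes. In the internode 18 were tested, with 2 called higher, 1 lower and 15 not called, which is 16.7% called beside 11.3% of all tested genes. Of the ligular values 18 were tested, with 5 higher, 3 lower and 10 not called, which is 44.4% beside 26.8%. The median log2 ratio of the tested ones, with 1 FPKM added, was 0.19 in internodes and 0.04 in ligular tissue.

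Among the regulators that fell in Sdw3, zfl1, a LEAFY homologue that acts with MADS-box genes in floral meristem identity, was at 1.78 FPKM in the Sdw3 ligular region against 6.44 in N18. In the internode zfl1 was at 1.09 and 1.25 and was not called. ZCN6, a TFL1-like gene, fell in both tissues, to 3.29 FPKM from 6.52 in the internode and to 1.60 from 3.05 in the ligular region, so that Sdw3 held about the same share of the N18 level in each. ZCN26 was listed at 0 in both internodes and fell in the ligular region, to 4.32 FPKM from 8.32. The authors' deposited table lists adjusted p-values of 0.000398 for zfl1, 0.00109 and 0.0227 for ZCN6, and 0.000754 for ZCN26.

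Among those that rose, gl15, an AP2-like gene that maintains juvenile leaf traits, was higher in Sdw3 in both tissues, at 2.89 FPKM against 1.97 in the internode and 2.58 against 1.29 in the ligular region. The TFL1-like gene ZCN3 rose in the internode, to 34.1 FPKM from 17.99, and was at 17.5 and 17.7 in the ligular region, where it was not called. Ligular levels of the GIGANTEA homologue gigz1b rose to 29.6 FPKM from 22.7, those of the clock gene PRR59 to 13.4 from 9.88, and those of ZCN16 to 1.54 from 0.357. The authors' deposited table lists adjusted p-values of 0.0427 and 0.000398 for gl15, 0.00363 for ZCN3, 0.00230 for gigz1b, 0.00287 for PRR59 and 0.0149 for ZCN16. DLF1, a bZIP factor that works with the florigen at the shoot tip, was at 16 FPKM in the Sdw3 internode and 13.9 in N18 and was not called.

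**Figure D4:**
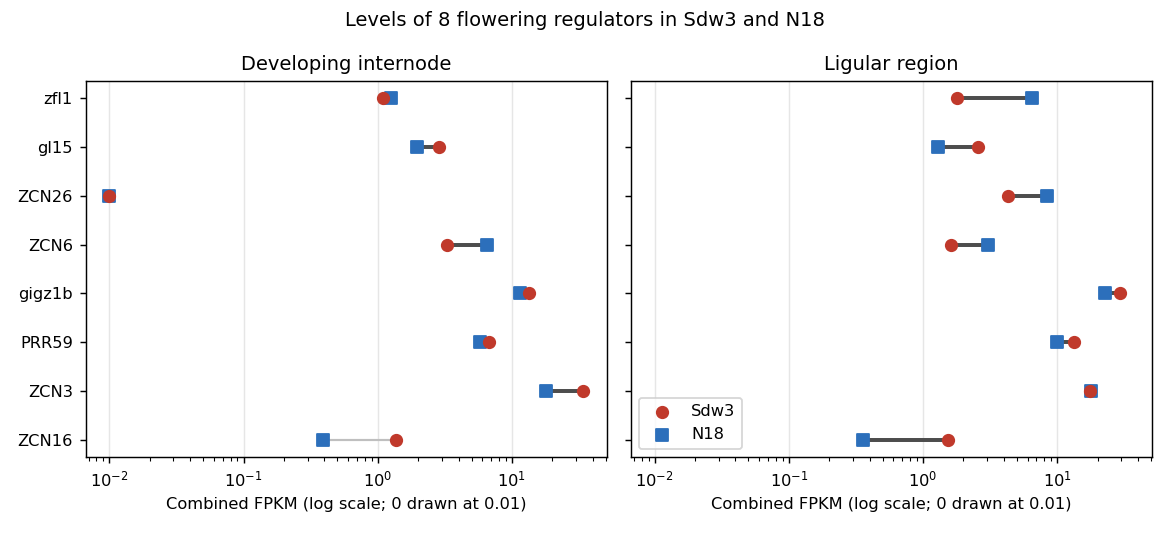
Combined FPKM of 8 flowering regulators on a log axis, with Sdw3 as red circles and N18 as blue squares, a thick dark line for values called different and a thin pale line for those not called; values listed at 0 are drawn at 0.01. In the ligular region zfl1, ZCN26 and ZCN6 are lower and gl15, gigz1b, PRR59 and ZCN16 higher in Sdw3.

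The tissues carried the markers of their labels. The ligule gene lg1 was at 15.0 FPKM in Sdw3 and 14.9 in N18 in the ligular region, and at 0.183 and 0.125 in the internode. The shoot homeobox genes kn1 and gnarley1 summed to 207 and 199 in the internode and were listed at 0 in the ligular region. Of the inflorescence meristem markers, 4 of 6 were matched by name; they summed to 1.05 in the Sdw3 internode and 0.815 in the N18 internode, and ra1 was listed at 0 in every group. Markers of floral organs (zag1, zmm2, si1 and bde1; 6 gene models) summed to 0.440 and 0.450 in the internode, and to 4.42 in Sdw3 and 2.84 in N18 in the ligular region, with bde1 listed at 0 throughout. Of the 3 green leaf markers, 2 were called higher in the Sdw3 ligular region, pep1 at 175 FPKM against 35.1 in N18 and ME1 at 73.9 against 16.7. The third, rbcS, was at 465 against 431 and was not called there, and the 3 summed to 714 in Sdw3 and 482 in N18. In the internode rbcS was called lower in Sdw3, and the sums were 84.0 and 119. The second ligule marker, lg2, was called higher in the Sdw3 ligular region, at 2.95 against 0.925 FPKM. The part of these marker differences in the ligular and internode values of the MADS-box genes was not tested.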

How the data were processed

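RNA of 12 maize libraries was sequenced. Per the submitters' processing notes, the build was B73 RefGen_v3 and the tools were TopHat2 2.1.0 and Cufflinks, with CASAVA 1.8 and bcl2fastq. Cufflinks' version and its scaling between libraries were not given in the sources used here. The deposited FPKM values are combined over the libraries of a group; the unit is taken from Cufflinks and the column layout. The p-values and adjusted p (q-values) are the authors', per the file headers, over 21131 tested internode and 22721 ligular genes; the smallest p is 5e-05. The deposited score, the authors' test statistic, was not used. Own Benjamini-Hochberg adjustment gave the same q-values within 5.3e-07, and that step was checked on simulated data.

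Planned fits by library could not be made, so a gene is called at the authors' adjusted p under 0.05. Log2 ratios were recomputed from FPKM, with no pseudocount unless given. The approximate standard error is the log2 ratio over the standard normal quantile for the p-value of the authors, and none is given at the smallest p. Names came from the RefSeq table of Zm-B73-REFERENCE-NAM-5.0: 18839 identifiers matched, 18322 of them to 1 entry. The 7 genes and the lists were chosen with earlier results of these data known. The named genes of a list are up to 8 at 1 FPKM or more with the smallest adjusted p. Other genes named (zap1, ZCN8, DLF1, m24, m31, GRMZM2G110195, GRMZM2G045287) were chosen after their values were seen. Genes named by several table entries were left out of the lists, and list names with no match, such as zfl2, were not analysed here. Software was pandas 2.3.3 with scipy 1.17.1 and numpy 2.4.6 under Python 3.11.15; figures were drawn with matplotlib 3.10.9.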

Additional observations from a re-analysis of the deposited data

How the results depend on the processing

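The ratios of the 7 genes were recomputed with pseudocounts of 0.1 and 1 FPKM, which cannot turn a direction, and after scaling by the FPKM sum or centring on the median ratio, which shift all genes of a tissue by at most 0.06 on the log2 scale; that the directions were kept therefore shows little. For the 8 ratios with a standard error, 29 of 32 recomputed values moved by less than it. The other 3, all with 1 FPKM added, were ligular m4 (-1.34), internode zmm15 (-1.38) and internode m16 (0.65). The remaining 6 ratios are at the smallest p or were not tested. The counts of the 7 genes called, 4 and 3, were the same at an adjusted p under 0.01 and with the adjustment made over genes at 1 FPKM or more. At an adjusted p under 0.01, the flowering regulators called in the ligular region numbered 5 in place of 8, and by construction fewer genes pass. The other counts and medians of the lists stayed within 1.5 times, or within the spread over the list, of the reported ones. No paired analysis was possible because the columns carry no library, and no replicate could be left out. Depth is unknown, so levels under 1 FPKM, such as those of m4 in Sdw3, of zmm15 in the Sdw3 internode and of MADS34 in the ligular region, carry an unknown counting error.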

Other observations

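Genes with a like pattern were looked for among named genes at 1 FPKM or more in at least 1 group, by the Euclidean distance over the 4 values of log2(FPKM + 1), each gene centred on its mean. With only 4 points, each combined over libraries, the distance is a description. The 1 FPKM added to each level flattens the ratios of low genes such as m4 and zmm15, so near genes can differ from them in fold. For MADS34 the nearest were the SBP-box genes ub2 (distance 0.89) and ub3 (1.03), which limit kernel row number of the ear. In the internode ub2 was at 24.7 FPKM in Sdw3 and 62.8 in N18, and ub3 at 21.6 and 74.9; unlike MADS34, both were above 1 FPKM in the ligular region, where ub2 was called higher in Sdw3, at 3.37 against 1.82, and ub3 was not called, at 6.95 against 6.58. For m4 the nearest was another SBP-box gene, sbp29 (0.44), at 11.0 and 38.6 in the internode, and 8.55 and 14.8 in ligular tissue, followed by ZCN6 (0.87). For m28 the nearest was m4 (1.30), and the next was ANAC030 (1.35), which was under 1 FPKM in 3 of the 4 groups.

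For zmmads1 the nearest were CBL10 (0.06) and SCR (0.17), for mads69 cal2 (0.06) and scl23 (0.08), for m16 EREB93 (0.12) and MYC2a (0.17), and for zmm15 GST38 (0.51) and bZip112 (0.58). In the internode GST38 was at 17.8 FPKM in Sdw3 and 28.7 in N18 and was called lower. There zmm15 was at 0.0487 and 1.73 and was not called. EREB93 and MYC2a were called higher in the Sdw3 internode and lower in the Sdw3 ligular region. MYC2a was at 40.8 FPKM against 29.5 in N18 in the internode, and at 58.7 against 85.3 in the ligular region. Among the 7 genes the closest pair was zmmads1 and mads69 (0.78) and the most distant was MADS34 and m16 (4.86).

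Of the 10 genes listed next to m28, 5 on either side, 3 of the 5 tested were called lower in the Sdw3 ligular region, where 13.7% of all tested genes were. In the internode 1 of the 4 tested was called lower, beside 4.76% of all tested genes. Around zmm15, 3 of 8 tested neighbours were called lower in the ligular region, around m16 2 of 7, and around mads69 1 of 5. Around m4, MADS34 and zmmads1 it was 1 of 8 for each. Such calls were thus found around each of the 7 genes, with the largest share around m28. Among the ligular ones around m28 is a gene at 0 FPKM in Sdw3 and 1.05 in N18. The gene listed just before m28, GRMZM2G045287, was called lower in both tissues, at 15.1 FPKM against 19.6 in the internode and 13.4 against 23.6 in the ligular region. It ends at 164282312 on chromosome 7, and m28 starts at 164451096. Its levels in Sdw3 were 0.77 and 0.57 of those in N18, beside 0.20 and 0.23 for m28.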
